A study of Homo sapiens with 6 samples.

Results

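Transcripts of 10 genes for adhesion and homing receptors were followed across 3 myeloma cell lines and the CD24+ and CD24- fractions sorted from each. The genes are ITGA4, ITGB1, ITGAL, ITGB2, ICAM1, CD44, CXCR4, ALCAM, MCAM and CD99, and every probe set annotated to exactly 1 of them was used. This gave 42 of the 54613 probe sets on the array that are not controls, or 10 of 19775 genes. ITGA4 had 4 probe sets, ITGB1 7, ITGAL 2, ITGB2 3, ICAM1 3, CD44 13, CXCR4 3, ALCAM 3, MCAM 2 and CD99 2. A further 4 probe sets annotated to MCAM together with a microRNA gene were left out.

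OPM2, ARP1 and OCI-MY5 are established human lines derived from multiple myeloma, the malignancy of plasma cells, and were kept in RPMI-1640 with serum. CD24, by which the cells were separated in a flow sorter, is a small glycoprotein of the cell surface. The CD24+ fractions, named cancer stem cells in the labels, were compared with the CD24- fractions, and no other treatment or genetic change is stated. There was 1 array for the CD24+ and 1 for the CD24- cells of each line, so a fraction had 3 arrays and a line 2.

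Plasma cells and their tumours lodge in the bone marrow through receptors that attract them there and hold them to stromal cells and matrix. CXCR4 is the receptor for the chemokine CXCL12, which marrow stroma secretes and toward which plasma cells migrate. Integrins are pairs of an alpha and a beta subunit that switch between resting and active forms on a signal from inside the cell: the products of ITGA4 and ITGB1 together bind VCAM1 and fibronectin, and those of ITGAL and ITGB2 together bind ICAM1. CD44 binds hyaluronan in the matrix, and ALCAM, MCAM and CD99 are surface glycoproteins of cell contacts.

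RefSeq promoters of GRCh38.p14, 250 bases before to 50 bases after the transcription start, were available for 8 of the 10 genes. Those of CXCR4 and CD44 are shown because these genes differed most clearly between the lines, and that of ICAM1 because all its probe sets were higher in the CD24+ than in the CD24- fraction of OPM2. Capitals mark matches, on either strand, to GGGCGG, the core of the element bound by SP1, to TATAAA, the TATA element, and to GGAAATTCC, an NF-kB element; CCAAT was searched as well and was in none of the 3.

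CXCR4, chr2:136118100-136118399, minus strand: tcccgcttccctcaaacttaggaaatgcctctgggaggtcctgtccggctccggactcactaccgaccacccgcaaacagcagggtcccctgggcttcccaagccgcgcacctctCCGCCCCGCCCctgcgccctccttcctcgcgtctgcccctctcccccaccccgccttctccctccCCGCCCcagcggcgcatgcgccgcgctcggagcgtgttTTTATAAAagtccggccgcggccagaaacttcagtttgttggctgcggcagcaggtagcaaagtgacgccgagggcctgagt
CD44, chr11:35138921-35139220, plus strand: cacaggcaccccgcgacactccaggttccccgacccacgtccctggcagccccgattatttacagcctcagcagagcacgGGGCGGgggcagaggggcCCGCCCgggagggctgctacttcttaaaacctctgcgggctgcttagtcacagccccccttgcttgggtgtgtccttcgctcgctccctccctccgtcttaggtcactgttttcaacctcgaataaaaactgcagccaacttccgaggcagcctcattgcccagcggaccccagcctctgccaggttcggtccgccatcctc
ICAM1, chr19:10270870-10271169, plus strand: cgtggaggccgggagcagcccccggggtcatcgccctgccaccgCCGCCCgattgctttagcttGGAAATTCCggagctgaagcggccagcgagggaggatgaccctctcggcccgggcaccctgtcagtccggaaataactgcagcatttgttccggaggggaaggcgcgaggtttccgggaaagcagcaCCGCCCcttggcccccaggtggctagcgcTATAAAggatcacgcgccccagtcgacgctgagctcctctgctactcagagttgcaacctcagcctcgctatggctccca

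The CXCR4 window held 3 GGGCGG and 2 TATAAA matches, with 2 pairs of matches overlapping each other, the CD44 window 2 GGGCGG matches, and the ICAM1 window 2 GGGCGG matches, 1 TATAAA and 1 GGAAATTCC. CXCR4 has 2 other annotated starts whose windows are not shown. Over 35093 promoters of the same length GGGCGG was present in 44.9%, TATAAA in 11.5%, CCAAT in 34.6% and GGAAATTCC in 0.462%. The GC content was 66.7% for CXCR4, 63.3% for CD44 and 64.7% for ICAM1, against a median of 58.7% over all promoters. These matches describe the sequence only.

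Values are the deposited MAS5 intensities, in which each array is scaled to 1 common mean. The OPM2 CD24+ array differed from the remaining 5 in brightness: its median intensity was 135.4, against 68.99 to 84.16, and its bacterial spike-in transcripts had a geometric mean of 37362, against 6174.5 to 7399.5. The ratio of 3′ to 5′ ACTB signal, which grows as RNA or its copies get shorter, was 27.1 and 7.54 for the CD24+ and CD24- fractions of OPM2, 2.63 and 2.47 for those of ARP1, and 9.36 and 23.2 for those of OCI-MY5. TrpnX probe sets, for a bacterial gene that was not spiked in by the usual protocol, served as a background mark and ran from 2.23 to 96.4. The highest of an array ran from 10.3 on the CD24+ array of ARP1 to 96.4 on that of OPM2. The same intensity can thus be a level on 1 array and a bound on another. A value at or below the highest TrpnX probe set of its own array is a bound and not a level; where 1 side of a difference lay there on all its arrays, the fold is given as at least that of the other side over the highest TrpnX values (geometric means). Of the 42 member probe sets 29 were at or above the median brightness of the array, and 3 lay within the TrpnX range of the same array on all 6 arrays. Genes known from plasma cells were bright on every array (8 of 8 genes found, summed intensity 48967 to 115405), while sums for T and NK cell (130.9 to 397.2), myeloid (81.8 to 470.5), stromal (337.4 to 603.2) and endothelial genes (68.5 to 414.4) were low, and the sum for B cell genes was 227.0 to 745.5. The sum for erythroid and platelet genes was 2399 and 1892 in the CD24+ and CD24- fractions of OPM2, nearly all of it from HBB, against 163.3 to 362.7 in the other lines. The high end of the myeloid, T and NK cell and endothelial sums was on the CD24+ array of OPM2. CD24 itself was dim, at 99.2, 29.0 and 70.5 in the CD24+ cells of OPM2, ARP1 and OCI-MY5, against 58.6, 47.2 and 3.35 in the CD24- cells, and was not a check of the sort. Whether the quality of the arrays had a part in any difference below was not tested. In bulk RNA, fewer cells of a type and less RNA per cell cannot be told apart.

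CXCR4 and CD44 had the widest differences between the lines that passed the test, in opposite directions. CXCR4 was higher in OPM2 and ARP1 than in OCI-MY5, and CD44 was higher in OCI-MY5 than in the other lines. By each gene's brightest probe set the fractions of a line lay close together beside these differences, while on some others they did not, such as 229221_at of CD44, with 129.4 and 9.76 in the CD24+ and CD24- fractions of OPM2. The plot of intensities by line and fraction shows all 10 genes.

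**Figure D1:**
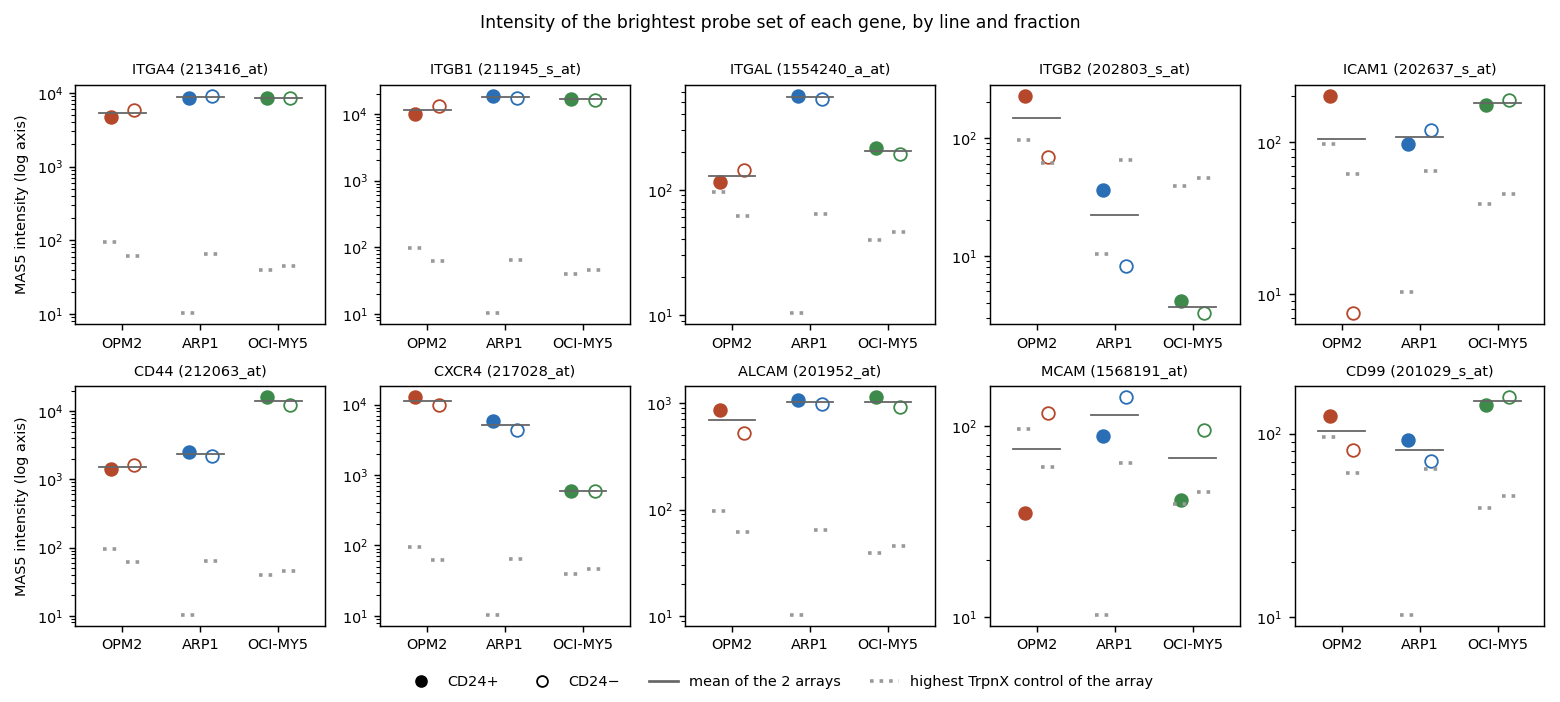
MAS5 intensity (log axis) of the brightest probe set of each of the 10 genes in OPM2, ARP1 and OCI-MY5; filled points are CD24+ and open points CD24- arrays, grey lines the mean of the 2 arrays of a line, and dotted lines the highest TrpnX control of that array. The OCI-MY5 points of CXCR4 lie at 596.4 and 585.4, below the other lines, and those of CD44 at 15927 and 12132, above them.

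CXCR4, by probe set 217028_at, had intensities of 12722 and 9736 in the CD24+ and CD24- fractions of OPM2, 5940 and 4365 in those of ARP1, and 596.4 and 585.4 in those of OCI-MY5. The lines did not overlap, and the order was OPM2, ARP1, OCI-MY5. The mean of OPM2 was 11229 ± 2112 and that of OCI-MY5 590.9 ± 7.80 (SD, n = 2 arrays each), a ratio of 19.0, and the log2 difference was 4.20 ± 0.33 (SE; limma, adjusted p = 0.0122). The difference of OPM2 from ARP1 was 1.13 ± 0.33 (adjusted p = 0.163), and that of ARP1 from OCI-MY5 was 3.07 ± 0.33 (adjusted p = 0.249), and neither passed.

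The other CXCR4 probe sets were likewise lowest in OCI-MY5. Probe set 209201_x_at had 1341 and 2711 in the CD24+ and CD24- fractions of OPM2, 1864 and 1588 in ARP1, and 264.5 and 236.2 in OCI-MY5, and OPM2 exceeded OCI-MY5 by a log2 difference of 2.86 (limma, adjusted p = 0.049). Probe set 211919_s_at had 1267 and 2352 in OPM2, 2648 and 1776 in ARP1, and 157.4 and 258.1 in OCI-MY5, with a log2 difference of 3.0 between OPM2 and OCI-MY5 (adjusted p = 0.0545). OPM2 and ARP1 overlapped on both of these, so the order of OPM2 above ARP1 rests on 217028_at alone.

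CD44, by probe set 212063_at, had intensities of 1424 and 1611 in the CD24+ and CD24- fractions of OPM2, 2551 and 2215 in those of ARP1, and 15927 and 12132 in those of OCI-MY5. The 3 lines did not overlap. The means were 1517 ± 132 in OPM2 and 14029 ± 2683 in OCI-MY5 (SD, n = 2 arrays each), so OCI-MY5 was 9.25 times as high, and the log2 difference of OPM2 from OCI-MY5 was −3.19 ± 0.31 (SE; limma, adjusted p = 0.0197). ARP1 differed from OCI-MY5 by −2.54 ± 0.31 (adjusted p = 0.249) and OPM2 from ARP1 by −0.65 ± 0.31 (adjusted p = 0.343).

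All 9 CD44 probe sets at or above the median brightness had both OCI-MY5 arrays above the other 4 arrays. Their log2 differences of OPM2 from OCI-MY5 ran from −3.19 to −1.64, and those of ARP1 from OCI-MY5 from −2.54 to −0.46. Probe set 204489_s_at, for instance, had 133.9 and 376.4 in the CD24+ and CD24- fractions of OPM2, 317.9 and 504.2 in ARP1, and 1974 and 1340 in OCI-MY5. The 4 dimmer CD44 probe sets held both signs, from −0.55 to 0.60 for OPM2 against OCI-MY5, and 1 of them, 234411_x_at, lay within the TrpnX range on all arrays.

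The test counts for all 42 probe sets were small. Between OPM2 and OCI-MY5, 3 of 42 member probe sets were called, against 2.18% of all 54613 probe sets. Of these, 2 of CXCR4 were higher and 1 of CD44 was lower in OPM2, and 15 had an unadjusted p below 0.05, against 19.1% of all. Between OPM2 and ARP1, 1 of 42, of ITGAL, was called (lower in OPM2), against 2.35% of all, with 12 below 0.05 unadjusted (19.7% of all). Between ARP1 and OCI-MY5 limma called 0 of 42, with 13 below 0.05 unadjusted (9.91% of all), and it called 0.00183% of all probe sets. After each array was centred on its median, 1 member was higher and 2 were lower between OPM2 and OCI-MY5 (217028_at of CXCR4, 212063_at and 209835_x_at of CD44). That scaling moved the median difference over all probe sets to −0.20 between OPM2 and OCI-MY5, against 0.19 as deposited.

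All 4 calls were made with 2 arrays per line, and each was lost when certain single arrays were left out. Such losses were not particular to these genes. Without the line that was not compared, 0 of all 54613 probe sets passed between OPM2 and ARP1, and 0 between OPM2 and OCI-MY5. Without the CD24+ array of OPM2 the CXCR4 difference on 217028_at was 4.01 (limma, adjusted p = 0.0504), that on 209201_x_at 3.36 (adjusted p = 0.0533), and the CD44 difference −3.10 (adjusted p = 0.0684). Leaving out any 1 array other than the CD24- array of OPM2, or the line that was not compared, also took each of these calls above the threshold, with adjusted p up to 0.154 for 217028_at, 0.294 for 209201_x_at and 0.2 for CD44. The CD44 call was also lost with a pseudocount of 1 (adjusted p = 0.0536) and with the fraction as a covariate (0.0681), and that of 209201_x_at with these (0.0883 and 0.115) and after centring (0.115), while that of 217028_at was kept in them (0.0421, 0.0496 and 0.00951). Apart from the OPM2 CD24- array, omitting 1 array or line gave log2 differences of 4.01 to 4.21, 2.78 to 3.36, and −3.38 to −2.99. Without that array they were 4.39 for 217028_at, 2.35 for 209201_x_at and −3.27 for CD44.

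**Figure D2:**
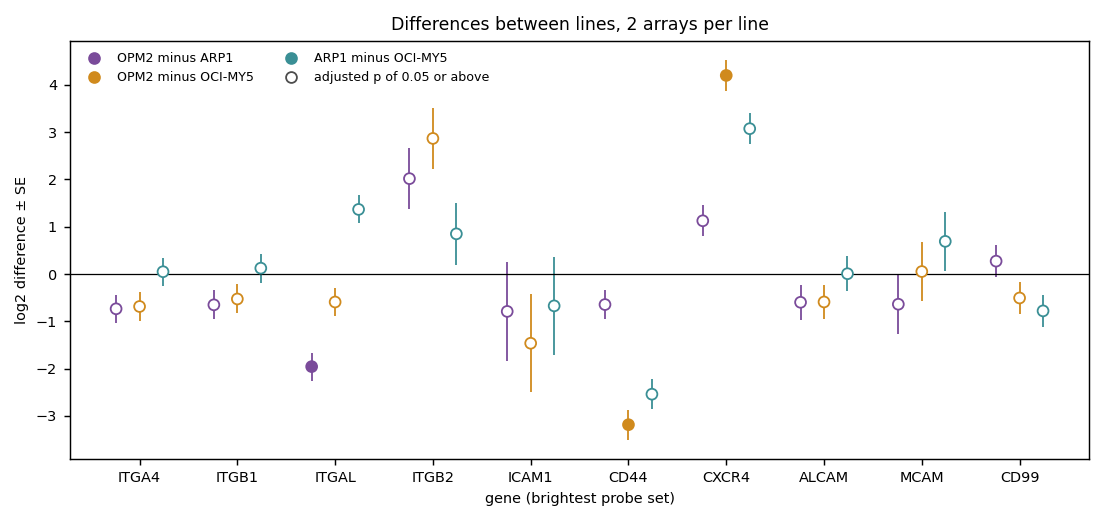
Log2 differences between lines (vertical axis, ± SE, 2 arrays per line) of the brightest probe set of each gene, for OPM2 minus ARP1, OPM2 minus OCI-MY5 and ARP1 minus OCI-MY5; filled points have an adjusted p below 0.05. ITGB2 in OCI-MY5 lay within the TrpnX range, so its points against OCI-MY5 are not exact. The filled points are ITGAL at −1.96, CD44 at −3.19 and CXCR4 at 4.20.

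ITGA4 and ITGB1, the subunits of the VCAM1 and fibronectin receptor, were bright on all arrays. They were lower in OPM2 than in ARP1 and OCI-MY5 on every bright probe set, although none of these differences passed the test over all probe sets. When only probe sets at or above the median brightness were tested, 243366_s_at of ITGA4 passed against ARP1 and OCI-MY5 (limma, adjusted p = 0.0126 and 0.0218). There 1553530_a_at of ITGB1 passed against ARP1 (limma, adjusted p = 0.0485), and their other bright probe sets did not pass. In that setting 15.5% and 15.3% of all probe sets tested were called. ITGA4, by 213416_at, had 4698 and 5911 in the CD24+ and CD24- fractions of OPM2, 8401 and 9179 in those of ARP1, and 8522 and 8455 in those of OCI-MY5. OPM2 was below the other 2 lines, and ARP1 and OCI-MY5 overlapped. The log2 difference was −0.74 ± 0.30 from ARP1 (limma, adjusted p = 0.268) and −0.69 ± 0.30 from OCI-MY5 (adjusted p = 0.302). The 3 other ITGA4 probe sets gave −1.80 to −0.88 from ARP1 and −1.25 to −0.17 from OCI-MY5, and only 205885_s_at, with 683.2 and 1094 in OPM2 and 905.6 and 1044 in OCI-MY5, let those 2 lines overlap.

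ITGB1, by 211945_s_at, had 9989 and 13210 in the CD24+ and CD24- fractions of OPM2, 18815 and 17316 in those of ARP1, and 16831 and 16289 in those of OCI-MY5. ARP1 was highest and OPM2 lowest, with no overlap. The log2 difference of OPM2 was −0.65 ± 0.31 from ARP1 (limma, adjusted p = 0.329) and −0.53 ± 0.31 from OCI-MY5 (adjusted p = 0.423), and on 1553530_a_at it was −2.22 from ARP1 (adjusted p = 0.127). That probe set had 534.0 and 1452 in OPM2, 4278 and 4072 in ARP1, and 1831 and 3015 in OCI-MY5. The 4 dim ITGB1 probe sets did not share this order: 216190_x_at had its highest value, 88.4, in the CD24+ cells of OPM2 and lay within the TrpnX range on all 6 arrays.

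ITGAL, the alpha subunit of the ICAM1 receptor, was highest in ARP1. Probe set 1554240_a_at had 115.8 and 143.6 in the CD24+ and CD24- fractions of OPM2, 565.8 and 528.6 in those of ARP1, and 213.9 and 191.4 in those of OCI-MY5, without overlap between lines. The log2 difference of OPM2 from ARP1 was −1.96 ± 0.30 (SE; limma, adjusted p = 0.047), with means of 129.7 ± 19.7 in OPM2 and 547.2 ± 26.3 in ARP1 (SD, n = 2 arrays each). Without the CD24+ array of OPM2 it was −1.82 (adjusted p = 0.0939), and the adjusted p reached 0.303 without the CD24+ array of ARP1. The call was also lost, at like differences of −2.22 to −1.96, with the fraction as a covariate (adjusted p = 0.117), after quantile normalization (0.0773), after centring (0.0845) and with a pseudocount of 1 (0.0886). ARP1 differed from OCI-MY5 by 1.37 ± 0.30 (adjusted p = 0.298).

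The second ITGAL probe set, 213475_s_at, had 173.9 and 50.4 in the CD24+ and CD24- fractions of OPM2, 410.8 and 513.7 in those of ARP1, and 203.9 and 147.9 in those of OCI-MY5. ARP1 was again highest, by −2.08 for OPM2 against ARP1 (limma, adjusted p = 0.144), while OPM2 and OCI-MY5 overlapped and the CD24- value of OPM2 lay within the TrpnX range. ITGB2, the beta subunit that pairs with ITGAL, ran in another order. By 202803_s_at it had 228.9 and 68.3 in the CD24+ and CD24- fractions of OPM2, 35.9 and 8.27 in those of ARP1, and 4.13 and 3.27 in those of OCI-MY5. Both OCI-MY5 values and the CD24- value of ARP1 lay within the TrpnX range, so they give no level. OPM2 was at least 2.96-fold higher than OCI-MY5 (limma, adjusted p = 0.105), and its difference from ARP1, measured on 1 of 2 ARP1 arrays, did not pass either (adjusted p = 0.187). The other 2 ITGB2 probe sets stayed at 30.8 or below.

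ICAM1, the ligand of that integrin and itself a surface adhesion molecule, had its highest and its lowest value in the fractions of OPM2 on its brightest probe set. By 202637_s_at it had 201.8 and 7.54 in the CD24+ and CD24- fractions of OPM2, 97.4 and 119.2 in those of ARP1, and 175.5 and 187.5 in those of OCI-MY5. The OPM2 CD24- value was the lowest of the 6 arrays and within the TrpnX range, and the OPM2 CD24+ value was the highest. The log2 differences between lines had standard errors of 1.04 and ran from −1.46 to −0.67. Probe set 202638_s_at had 115.0 and 7.29 in OPM2, 133.8 and 74.8 in ARP1, and 138.5 and 142.6 in OCI-MY5, where the OPM2 CD24- value again lay within the TrpnX range, and 215485_s_at had 297.3 and 94.9 in OPM2, 122.9 and 31.7 in ARP1, and 121.0 and 79.2 in OCI-MY5.

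ALCAM, the ligand of CD6 on T cells, had 853.1 and 522.8 by 201952_at in the CD24+ and CD24- fractions of OPM2, 1060 and 979.4 in those of ARP1, and 1129 and 911.5 in those of OCI-MY5. OPM2 was lowest, by −0.60 ± 0.37 from ARP1 (limma, adjusted p = 0.443) and −0.59 ± 0.37 from OCI-MY5 (adjusted p = 0.447), and ARP1 and OCI-MY5 overlapped. On 201951_at OPM2 was lowest as well, at 272.8 and 162.7, against 442.3 and 623.3 in ARP1. CD99, which takes part in leukocyte passage through endothelium, had 124.7 and 81.9 by 201029_s_at in the CD24+ and CD24- fractions of OPM2, 92.0 and 71.3 in ARP1, and 143.8 and 157.7 in OCI-MY5, and OCI-MY5 was highest on both CD99 probe sets.

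MCAM, also called CD146, lay just above the median brightness on both probe sets annotated to it alone. Their mean log2 values were 6.56 and 6.37, against a median of 6.355, while 211042_x_at, annotated also to a microRNA gene, was far brighter. By 1568191_at MCAM had 35.4 and 117.0 in the CD24+ and CD24- fractions of OPM2, 88.6 and 142.0 in those of ARP1, and 41.0 and 95.3 in those of OCI-MY5. All 3 lines overlapped, and the CD24- array was the higher one in each. The other MCAM probe set, 209087_x_at, had 21.6 and 115.6 in OPM2, 88.6 and 70.1 in ARP1, and 85.1 and 54.7 in OCI-MY5, so the order of the fractions turned in ARP1 and OCI-MY5. On both probe sets the CD24+ value of OPM2 lay within the TrpnX range.

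Over all members, both arrays of OPM2 lay below the other 4 arrays for 13 of 42 probe sets, against 13.1% of all probe sets, and above them for 3 (16.8% of all). The 13 were 3 of ITGA4, 3 of ITGB1, 1 of ITGAL, 4 of CD44 and 2 of ALCAM. By its CD24- array alone, OPM2 lay below the 4 arrays of ARP1 and OCI-MY5 for 20 of 42, against 26.4% of all. OCI-MY5 lay above the others for 12 (9 of CD44, 2 of CD99 and 1 of ICAM1; 8.72% of all) and below for 5 (3 of CXCR4 and 2 of ITGB2; 12.3% of all). ARP1 lay above the others for 9 (3 each of ITGA4 and ITGB1, 2 of ITGAL and 1 of ALCAM; 11.2% of all) and below for 2 (9.82% of all).

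**Figure D3:**
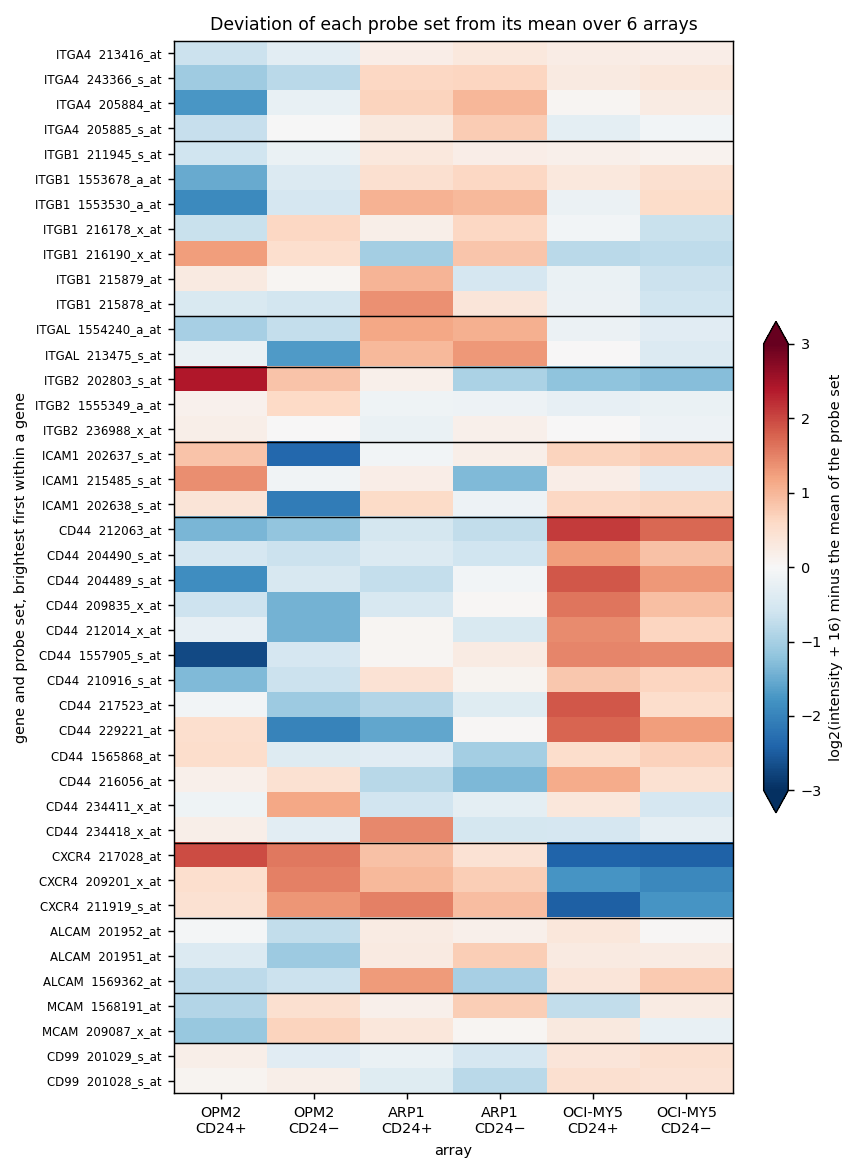
Deviation of each of the 42 member probe sets (rows, by gene, brightest first) from its own mean over the 6 arrays (columns, CD24+ left of CD24- in each line), as log2(intensity + 16), red higher and blue lower. The 9 brightest CD44 rows are red in OCI-MY5 and the 3 CXCR4 rows are blue there, while the dim rows of ITGB1, ITGB2 and CD44 follow no common order.

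Probe sets of 1 gene agreed well where they were bright. Over pairs of probe sets of the same member gene the median Pearson r across the 6 arrays was 0.564 (120 pairs), and 0.863 for the 54 pairs in which both were at or above the median brightness. Over all genes on the array it was 0.259 (42435 pairs) and 0.489 (17770 bright pairs). CD44 alone gave 78 of the 120 member pairs and 36 of the 54 bright ones. These medians describe 6 arrays from 3 lines, in which arrays of a line share their cells. Probe sets of a gene can also share bases of the transcript. Without probe sets whose names end in x_at or s_at, which can bind several transcripts, the median was 0.629 (20 pairs), and without those within the TrpnX range on all arrays 0.643 (100 pairs).

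Among bright probe sets the median r was 0.954 for ITGB1, 0.938 for CXCR4, 0.893 for ITGA4, 0.875 for ALCAM, 0.834 for CD44 and 0.833 for ITGAL. It was 0.557 for MCAM, whose pair differed on the order of the fractions. ALCAM, ITGAL and MCAM had 1 bright pair each, so theirs are single correlations. ICAM1 gave 0.208, where 202637_s_at and 202638_s_at followed each other at 0.943 and the third probe set followed neither, with 0.203 as the lowest value. With its dim probe sets included the median of ITGB1 was 0.362, with values down to −0.732.

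Some genes followed each other over the 6 arrays. Pearson's r between the brightest probe sets of ITGA4 and ITGB1 was 0.963, that of CD44 and CXCR4 −0.987, and that of ITGAL and ITGB2, which form a pair in the protein, −0.481. The ITGB2 probe set lay within the TrpnX range on 3 of 6 arrays, so the last value rests partly on bounds. With 3 lines these correlations describe the order of the lines more than single arrays. The gene most like CXCR4 in its pattern, among 12077 other genes at or above the median brightness, was ARFGEF3 (r = 0.997 over 6 arrays), and that most like CD44 was SS18L2 (r = 0.997), but 215 and 163 genes exceeded 0.95.

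Between the fractions, limma without the line as a block called 0 of the 42 member probe sets and 0.00% of all 54613. Without that block 0 members had an unadjusted p below 0.05, against 3.42% of all. The median log2 difference, CD24+ minus CD24-, was 0.10 over the members and 0.09 over all probe sets. MCAM had the largest size among the brightest probe sets with 1 direction in all 3 lines, at −0.98 ± 0.43 (SE; unadjusted p = 0.0558 and adjusted p = 1 by limma), with differences of −1.37 for OPM2, −0.60 for ARP1 and −0.97 for OCI-MY5, of which that for OPM2 is set against a CD24+ value within the TrpnX range. CXCR4 differed by 0.29 ± 1.36 and CD44 by 0.14 ± 1.08 (adjusted p = 1 for each), and both values turned negative when each array was centred on its median, which moved the median of all probe sets to −0.24. With the line as a block these differences were the same, with errors of 0.27 for CXCR4, 0.28 for CD44 and 0.30 for MCAM. In that fit limma again called 0 members, with a lowest adjusted p of 0.874 among them. There 3 of the 42 members had an unadjusted p below 0.05, and the share of all probe sets is not given for it.

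The fractions differed in the same direction in all 3 lines for 13 member probe sets. CD24+ cells were higher in 8 of 42, against 17.6% of all probe sets, and lower in 5, against 9.99% of all. Those lower were 243366_s_at, 205884_at and 205885_s_at of ITGA4, 1553678_a_at of ITGB1 and 1568191_at of MCAM. The ITGA4 differences were small outside OPM2: on 205885_s_at they were −0.67 for OPM2, −0.47 for ARP1 and −0.20 for OCI-MY5, and on 243366_s_at −0.27, −0.03 and −0.07. The brightest ITGA4 probe set did not share the direction in OCI-MY5, at 0.01. Those higher were 2 dim probe sets of ITGB1, 2 of CD44, and 1 each of ITGB2, ICAM1, CXCR4 and ALCAM.

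Within OPM2, 8 member probe sets were at least 2-fold higher in CD24+ cells (25.5% of all probe sets) and 10 were at least 2-fold lower (11.4% of all), with 1 array on each side and so no replicate check. Of these 18, 8 had both values above the TrpnX range, 9 had 1 value within it and 1 had both. All 3 ICAM1 probe sets were higher, by 1.50 on the log2 scale on 215485_s_at, at least 3.29-fold on 202637_s_at and at least 1.88-fold on 202638_s_at. Both MCAM probe sets were lower in CD24+ cells, by at least 1.21-fold on 1568191_at and at least 1.2-fold on 209087_x_at. ITGA4 and ITGB1 were lower in the CD24+ cells on all 7 bright probe sets, from −1.52 to −0.27 for ITGA4 and from −1.42 to −0.40 for ITGB1. CD44 held both signs, at least 2.45-fold lower in CD24+ cells on 1557905_s_at and at least 2.11-fold higher on 229221_at, and CXCR4 as well, with 0.39 on 217028_at and −1.01 on 209201_x_at. The CD24+ side of these differences is the array with the raised spike-ins and median.

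In ARP1, 8 of 42 member probe sets were at least 2-fold apart (21.2% of all probe sets), 6 of them higher and 2 lower in CD24+ cells. In OCI-MY5 1 of 42 was (21.4% of all), and it was higher in CD24+ cells. The probe set in OCI-MY5 was 217523_at of CD44, at 1.33. In ARP1 ICAM1 differed by −0.25 on 202637_s_at and 0.72 on 202638_s_at, and 215485_s_at was at least 1.91-fold higher in CD24+ cells. In OCI-MY5 it differed by −0.09, −0.04 and 0.53 on 202637_s_at, 202638_s_at and 215485_s_at. Of the 8 probe sets of ARP1 past 2-fold, 7 had at least 1 value within the TrpnX range. Those other than ICAM1 were 216190_x_at, 215879_at and 215878_at of ITGB1, 202803_s_at of ITGB2, 229221_at and 234418_x_at of CD44 and 1569362_at of ALCAM.

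**Figure D4:**
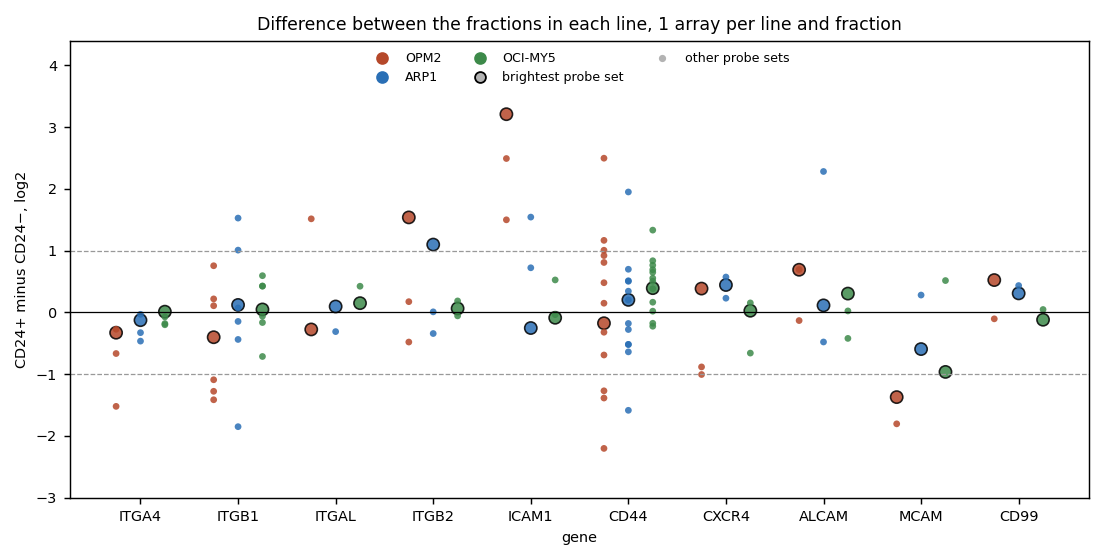
Difference between the fractions, CD24+ minus CD24- (vertical axis, log2 of intensity + 16), for every member probe set in OPM2, ARP1 and OCI-MY5; large outlined points are the brightest probe set of a gene, and dashed lines mark 2-fold. The 3 OPM2 points of ICAM1 lie between 1.50 and 3.21, 2 of them against a CD24- value within the TrpnX range, and the brightest MCAM points lie below 0 in all 3 lines.

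Other genes of these pathways were taken from 6 lists that hold 101 genes, of which 97 had a probe set of their own. Between the fractions 0 of the 97 passed. Between OPM2 and ARP1 3 were higher in OPM2 (1.09% of all genes by their brightest probe sets) and 3 were lower (2.23% of all). Between OPM2 and OCI-MY5 7 were higher (1.49% of all) and 2 were lower (1.86% of all), and between ARP1 and OCI-MY5 0 passed, as for all genes (0.00%). The lists' median differences for these comparisons were 0.23, 0.47 and 0.20, against 0.08, 0.12 and 0.05 over all genes.

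The calls were most often in the list of integrin activation. RAP1A, a small GTPase that switches integrins to their active form, had 653.9 and 1166 in the CD24+ and CD24- fractions of OPM2, 4381 and 5513 in ARP1, and 13731 and 15781 in OCI-MY5, and was lower in OPM2 than in OCI-MY5 by −4.05 ± 0.40 (SE; limma, adjusted p = 0.0191). ITGB1BP1, which binds the tail of the ITGB1 product, had 4135 and 4349 in OPM2, 17836 and 17543 in ARP1, and 21848 and 21052 in OCI-MY5, with −2.06 ± 0.28 from ARP1 (adjusted p = 0.0379) and −2.33 ± 0.28 from OCI-MY5 (adjusted p = 0.029). APBB1IP, an adaptor that carries the RAP1 signal to talin, was higher in OPM2, at 8395 and 6404, against 648.4 and 693.1 in ARP1 and 829.4 and 1364 in OCI-MY5, by 3.42 ± 0.38 (adjusted p = 0.0246) and 2.77 ± 0.38 (adjusted p = 0.0391). FERMT2, a kindlin that binds integrin tails, was 3.66 higher in OPM2 than in OCI-MY5 (adjusted p = 0.0222), and the adhesion kinase PTK2B 2.44 (adjusted p = 0.0396).

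Of the other homing receptors, SELPLG, the ligand of P-selectin, had 2227 and 1934 in OPM2, 1303 and 1138 in ARP1, and 466.2 and 419.7 in OCI-MY5, and was higher in OPM2 than in OCI-MY5 by 2.19 (limma, adjusted p = 0.0382). Of 5 sphingosine 1-phosphate receptors, a family that guides lymphocytes out of tissue, 2 passed, both lower in OPM2 than in ARP1. S1PR4 had 32.9 and 95.8 in OPM2, the first within the TrpnX range, against 2152 and 1594 in ARP1 (adjusted p = 0.0261). S1PR1 had 22.5 and 8.12 in OPM2, both within that range, against 306.2 and 162.4 in ARP1, so ARP1 was at least 2.9-fold higher (adjusted p = 0.0487). Of the other surface molecules, CD81, a tetraspanin, had 2772 and 3377 in OPM2, 32.3 and 108.8 in ARP1, and 62.9 and 15.2 in OCI-MY5, the last within the TrpnX range, by 5.31 (adjusted p = 0.0324) and 5.95 (adjusted p = 0.0247). NCAM1, or CD56, was 2.66 higher in OPM2 than in ARP1 (adjusted p = 0.0304). SDC1, or CD138, was 2.34 higher in OPM2 than in OCI-MY5 (adjusted p = 0.0458), and the tetraspanin CD151 2.22 (adjusted p = 0.05, just under the threshold). In the lists of other integrin subunits (21 genes), ligands and counter-receptors (13 genes) and CD44 partners (7 genes) 0 genes passed in any comparison by limma.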

How the data were processed

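RNA of sorted CD24+ and CD24- cells of OPM2, ARP1 and OCI-MY5 was hybridised to the Affymetrix U133 Plus 2.0 human array, 1 per line and fraction, from 100 ng of total RNA per the labels' protocols. Each deposited value is the linear MAS5 intensity of a probe set on an array, which the authors computed with Affymetrix Expression Console 1.1 per the submitters' processing notes. MAS5 scales each array by 1 factor. With 2% of the values trimmed at either end, all 6 arrays had a mean of 500.1. Detection calls, scanner files and scan dates were not used here.

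Probe sets were named from the platform annotation table, with symbols updated by Entrez ID through the RefSeq gene table of GRCh38.p14 (41037 matched). Of 54613 probe sets without controls, 41091 had 1 gene symbol, 1801 several and 11721 none. A probe set was a member if it was annotated to exactly 1 of the 10 genes. Each gene was shown by its brightest probe set by mean intensity across the 6 arrays, and by all its probe sets for agreement. Other genes were taken from fixed lists of pathway genes and cell type markers and were named where they passed the test. The members, lists and tests were chosen with earlier results of these data known.

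Values were analysed as log2(intensity + 16), which understates differences of dim probe sets. Fractions (3 arrays each) and lines (2 arrays each, the CD24+ and the CD24- array of a line, in 1 fit) were compared by two-sided tests in limma 3.58.1 (functions lmFit and eBayes, R 4.3.3), adjusted by the Benjamini-Hochberg method over all 54613 probe sets, with a threshold of 0.05. The fits were tested on simulated data. Counts, correlations and promoters were handled in Python 3.11.15 with pandas 2.3.3. The series' design text states no pairing, so the fraction test had no block, and its errors include the spread between lines. Replicate numbers in the titles stand for the lines, so same-numbered samples come from 1 line. Their deviations from the group means correlated at 0.45 for OPM2, 0.35 for ARP1 and 0.32 for OCI-MY5, against −0.30 to 0.05 between lines, so the numbers pair the samples. No label names repeated cultures of a line, so p-values measure only the spread between these arrays, which may be technical, and the number of arrays limits the precision. Alternatives were pseudocounts of 1 and 64, a limit at the median brightness, 1 probe set per gene, an intensity trend, quantile normalization, median centring, the replicate block, the fraction as a covariate, and leaving out each line and array.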

Additional observations from a re-analysis of the deposited data

How the results depend on the processing

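Between the fractions 0 probe sets passed in every setting run, the replicate block included (0 called, lowest adjusted p among members 0.874), so the block changed no call. Called probe sets between OPM2 and ARP1, 1283 as reported, were 364 with a pseudocount of 1, 3182 with 64, 4237 with the brightness limit, 3018 with 1 probe set per gene, 5850 with an intensity trend and 180 with the fraction as a covariate. Called probe sets between OPM2 and OCI-MY5, 1192 as reported, were 379, 3060, 4167, 3150, 5628 and 180 in the same settings, and those between ARP1 and OCI-MY5, 1 as reported, were 0, 20, 95, 316, 1299 and 0, with 0 after quantile normalization and 7 after centring. Called members between OPM2 and ARP1, 1 as reported, were 0 with a pseudocount of 1, quantile normalization, centring or the covariate, 2 with 64, 4 with the brightness limit, 3 with 1 probe set per gene and 9 with the trend. Called members between OPM2 and OCI-MY5, 3 as reported, were 1 with a pseudocount of 1 or the covariate and 10 with 64 or the brightness limit. They were 2 with 1 probe set per gene and 14 with the trend. Called members between ARP1 and OCI-MY5, 0 as reported, were 2 with the brightness limit, 3 with 1 probe set per gene and 6 with the trend. The share of all probe sets called rose with them, to 15.5%, 15.3% and 0.348% with the brightness limit and to 10.7%, 10.3% and 2.38% with the trend. With the brightness limit the calls included all 3 CXCR4 and 6 CD44 probe sets between OPM2 and OCI-MY5. Without 1 line or array, calls ran from 0 to 3150 for OPM2 against ARP1 (members 0 to 5), from 0 to 3058 for OPM2 against OCI-MY5 (members 0 to 5) and were 0 for ARP1 against OCI-MY5; a line left with 1 array was assumed to vary like the others.

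Signs turned only where neither value passed the threshold. After centring, CD24+ minus CD24- was −0.19 for CD44, −0.046 for CXCR4 and −0.094 for CD99 (−0.098 with quantile normalization), and ITGAL was 0.001 with a pseudocount of 64. ARP1 minus OCI-MY5 was −0.079 for ITGA4, −0.003 for ITGB1 and −0.12 for ALCAM after centring (ALCAM −0.05 with quantile normalization), and OPM2 minus OCI-MY5 for MCAM was −0.34 after centring and −0.19 with quantile normalization. Without 1 line or array the fraction differences ran from −0.34 to 0.13 for ITGA4, −0.26 to 0.20 for ITGB1, −0.59 to 0.52 for ITGAL, −0.074 to 1.73 for ITGB2, −0.17 to 1.57 for ICAM1, −0.88 to 1.03 for CD44 and −0.86 to 1.56 for CXCR4. OPM2 minus ARP1 ran from −2.40 to 0.82 for ICAM1 and −1.32 to 0.049 for MCAM, OPM2 minus OCI-MY5 from −3.07 to 0.14 and −0.63 to 0.74 for the same genes, and ARP1 minus OCI-MY5 from −0.015 to 0.11 for ITGA4 and −0.15 to 0.16 for ALCAM. Members at least 2-fold apart within a line were 1 in ARP1 with a pseudocount of 64, against 8, and in OCI-MY5 5 with a pseudocount of 1 and 2 with quantile normalization or centring, against 1. The shares of all probe sets in these settings are not given, so these counts show no trait of the members. The causes of these changes were not tested. Dim probe sets, 13 of 42 below the median brightness, limit what the array shows for ITGB2, all 3 of whose probe sets are among them.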

Other observations

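The 4 probe sets annotated to MCAM together with MIR6756 did not share 1 level or order. 211042_x_at was bright, with 4635 and 3305 in the CD24+ and CD24- fractions of OPM2, 2545 and 2547 in those of ARP1, and 2909 and 3687 in those of OCI-MY5, and its CD24+ minus CD24- log2 difference was 0.05. 209086_x_at was lower in the CD24+ cells of each line, at 10.0 (within the TrpnX range) against 125.5 in OPM2, 46.2 against 175.4 in ARP1 and 74.6 against 127.5 in OCI-MY5, and it did not pass the test (limma, adjusted p = 1). 210869_s_at stayed at 57.8 or below, and 211340_s_at had 60.4 and 1.96 in OPM2, 133.3 and 107.5 in ARP1, and 111.7 and 117.6 in OCI-MY5.

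Of 7 plasma cell genes outside the adhesion lists, 1 was called between OPM2 and ARP1 (1.09% of all genes were called higher) and 2 between OPM2 and OCI-MY5 (1.49%), all higher in OPM2, and CD38, IRF4, PRDM1, XBP1 and MZB1 were called in neither. MZB1 differed in the other direction, by −1.39 for OPM2 against ARP1 (adjusted p = 0.103). TNFRSF17, the receptor BCMA, had 34757 and 29319 in the CD24+ and CD24- fractions of OPM2, 11584 and 11033 in those of ARP1, and 4104 and 3885 in those of OCI-MY5, and OPM2 exceeded OCI-MY5 by 2.99 (log2; limma, adjusted p = 0.0187). SLAMF7, a surface receptor of plasma cells and NK cells, was 3.13 higher in OPM2 than in ARP1 (adjusted p = 0.0178) and 4.44 higher than in OCI-MY5 (adjusted p = 0.00833). Of 3 B cell genes, 1 was called: PAX5, a B cell transcription factor, had 16.4 and 15.9 in OPM2, both within the TrpnX range, against 369.6 and 272.0 in ARP1 and 333.6 and 420.8 in OCI-MY5, which were at least 4.13-fold and 4.88-fold higher (adjusted p = 0.0185 and 0.0158). MS4A1 and CD79A did not pass, with 0.70 and 0.05 for OPM2 minus ARP1 (adjusted p = 0.616 and 0.98). The haemoglobin gene HBB had 2298 and 1792 in OPM2, against 76.2 and 225.2 in ARP1 and 99.9 and 192.0 in OCI-MY5, by a probe set whose name ends in x_at, and did not pass (adjusted p = 0.0503 and 0.0539). The other erythroid and platelet genes found, ALAS2, PF4 and PPBP, had 93.2 or less on every array and did not follow it.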
